A study of Mus musculus with 6 samples.

Results

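The genes described here encode receptors that open or signal when a neurotransmitter binds, channels that carry sodium or calcium, and auxiliary subunits of such channels. They were chosen by symbol, though with earlier results of these data known: glutamate receptors (Gria, Grik, Grin, Grid, Grm), GABA-A receptors (Gabr), glycine receptors (Glr), nicotinic and muscarinic acetylcholine receptors (Chrn, Chrm), voltage-gated calcium channels (Cacna, Cacnb, Cacng), voltage-gated sodium channels (Scn), the sodium leak channel Nalcn and the ryanodine receptors (Ryr). The choice gave 115 genes of the 21031 mouse protein-coding genes that have a curated transcript in RefSeq, in 17 classes.

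H3K27me3, the trimethylation of lysine 27 of histone H3, was mapped by chromatin immunoprecipitation and sequencing in primary granulosa cells, the cells that surround the oocyte and make steroid hormones. The cells came from wild type C57BL/6J mice aged 8 to 9 weeks, were pooled over animals and were grown in dishes. Of the 6 samples, 3 are labelled with no agent (control) and 3 received the androgen dihydrotestosterone (DHT) at 25 nM for 24 h. The deposited data hold 1 pooled peak list and 1 list of genes for each group, so a gene is either listed or not listed, sequencing depth is unknown, and the 2 groups could not be compared by a test or beside any spread between replicates. The control pool held 16345 peaks and the DHT pool 3975, and every count below has to be read beside this difference. Of 9 granulosa cell markers, 6 were in neither gene body list, Cyp19a1 was in that of control alone, Nr5a2 in that of DHT alone and Fshr in both. A list of genes with a silencing mark gives no expression level, so it cannot check the labelled cell type.

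H3K27me3 is written by the Polycomb complex through its subunit EZH2 and marks genes that are silent, among them many genes of the nervous system in cells that are not neurons. Ionotropic receptors are assembled from several subunits around a pore, while metabotropic glutamate receptors and muscarinic receptors act through G proteins. Voltage-gated channels are built around 1 large pore subunit, with auxiliary subunits that set its traffic to the membrane and its gating. Many of these genes are long, because of large introns, and a long gene offers more bases for a peak to fall in.

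Promoters of 4 of the genes are shown before the counts, each from 250 bases before to 50 bases after the RefSeq start in GRCm38.p6, read on the strand of the gene and with CpG (the letters CG) in capitals. The promoter table used held 83 of the 115 genes (72.2%), and 95.7% of its 20488 windows of protein-coding genes had at least 1 CG, with a median of 14. Nalcn and Grin1 are shown because the authors' lists join them to a change in expression, and Gabra3 and Grik3 because they had the fewest and the most CpG among the genes in a gene body list that the table held.
Nalcn: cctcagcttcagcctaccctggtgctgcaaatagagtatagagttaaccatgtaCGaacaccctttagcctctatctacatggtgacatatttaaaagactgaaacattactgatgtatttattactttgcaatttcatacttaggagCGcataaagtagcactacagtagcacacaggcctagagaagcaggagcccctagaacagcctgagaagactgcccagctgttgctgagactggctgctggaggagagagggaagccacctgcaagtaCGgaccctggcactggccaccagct
Grin1: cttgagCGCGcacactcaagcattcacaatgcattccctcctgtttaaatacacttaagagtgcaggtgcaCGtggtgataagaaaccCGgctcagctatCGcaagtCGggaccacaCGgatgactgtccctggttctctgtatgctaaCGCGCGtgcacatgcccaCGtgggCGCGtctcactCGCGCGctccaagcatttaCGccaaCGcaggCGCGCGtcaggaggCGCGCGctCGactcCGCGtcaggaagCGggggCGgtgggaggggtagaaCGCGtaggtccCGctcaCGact
Gabra3: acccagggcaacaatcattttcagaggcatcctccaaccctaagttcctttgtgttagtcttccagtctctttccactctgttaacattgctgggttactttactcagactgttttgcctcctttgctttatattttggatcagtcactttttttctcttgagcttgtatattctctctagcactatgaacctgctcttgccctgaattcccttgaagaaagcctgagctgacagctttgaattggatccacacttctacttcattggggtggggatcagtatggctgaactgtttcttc
Grik3: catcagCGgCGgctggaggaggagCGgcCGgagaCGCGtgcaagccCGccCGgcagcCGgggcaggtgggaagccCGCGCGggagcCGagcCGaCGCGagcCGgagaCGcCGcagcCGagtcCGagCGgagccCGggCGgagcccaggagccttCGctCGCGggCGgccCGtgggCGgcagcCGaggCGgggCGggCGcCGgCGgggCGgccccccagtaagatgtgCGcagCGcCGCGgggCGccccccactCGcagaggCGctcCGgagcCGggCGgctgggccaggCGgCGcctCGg
The Nalcn window lies at chr14:123627095-123627394 on the minus strand and holds 3 CpG, and that of Grin1 lies at chr2:25319138-25319437 on the minus strand and holds 33. Gabra3, at chrX:72656870-72657169 on the minus strand, has 0 CpG, whereas Grik3, at chr4:125490446-125490745 on the plus strand, has 50. The GC content of the windows was 48.3% for Nalcn, 60.7% for Grin1, 43.0% for Gabra3 and 82.0% for Grik3. None of the 4 genes was in a promoter list.

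Of the 115 receptor and channel genes, 50 had an H3K27me3 peak in the gene body in control cells (43.5%, 95% Wilson interval 34.8 to 52.6%), where 13.6% of all protein-coding genes did. In the DHT list there were 19 (16.5%, interval 10.8 to 24.4%), beside 4.96% of all protein-coding genes. The intervals cover counting error only, and neighbouring or related genes are not independent draws. Divided by list, 34 genes were in the control list alone (29.6%, against 10.6% of all protein-coding genes), 16 in both (13.9%, against 3.01%) and 3 in the DHT list alone (2.61%, against 1.95%). In either list there were 53 (46.1%, against 15.5%), which leaves 62 in neither. The 16 genes in both lists were 32.0% of the control members (interval 20.8 to 45.8%) and 84.2% of the DHT members (interval 62.4 to 94.5%). For all protein-coding genes, which are shorter, these shares were 22.2% and 60.6%. From 100 kb up, the share of control genes that was also in the DHT list was not higher for the receptor and channel genes at like length. It was 1 of 11 from 100 to 200 kb (9.09%, against 20.03% of all protein-coding genes of that length), 3 of 13 from 200 to 400 kb (23.1%, against 34.4%) and 11 of 18 at 400 kb or more (61.1%, against 62.0%). From 50 to 100 kb, 4 of 5 control genes were in the control list alone and Grm4 was in both. Over all protein-coding genes of that length, 570 of 639 control genes were in the control list alone.

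The study took promoters as 1 kb on either side of the start site. None of the 115 genes was in the control promoter list, which held 0.637% of all protein-coding genes, or in the DHT promoter list, which held 0.195%. At those background shares, 0.733 and 0.224 of 115 genes would be listed, so counts of 0 do not set these genes apart, and 0 of 115 allows a share of up to 3.23% by the Wilson interval.

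The share of listed genes rose with gene length, for these genes and for all protein-coding genes. The receptor and channel genes had a median length of 91.6 kb, whereas that of all protein-coding genes was 17.7 kb. The genes in both lists were the longest, with a median of 455.8 kb, followed by those in the control list alone at 206.0 kb and the 3 in the DHT list alone at 159.3 kb, while those in neither had a median of 26.8 kb. Under 50 kb, 3 of 44 receptor and channel genes were in the control list (6.82%) and the DHT list had 0, next to 4.50% and 1.24% of all protein-coding genes of that length. From 50 to 100 kb the control list held 5 of 17 (29.4%, against 25.9%) and the DHT list 1 (5.88%, against 7.41%). Among the 21 genes from 100 to 200 kb, 11 were in the control list (52.4%, against 48.7%) and 3 in the DHT list (14.3%, against 17.1%). Between 200 and 400 kb nearly every gene was marked in control cells, 13 of 14 (92.9%, against 73.0%), but 3 were in the DHT list (21.4%, against 32.4%). At 400 kb or more, 18 of 19 were in the control list (94.7%, against 93.7%) and 12 in the DHT list (63.2%, against 60.1%).

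**Figure D1:**
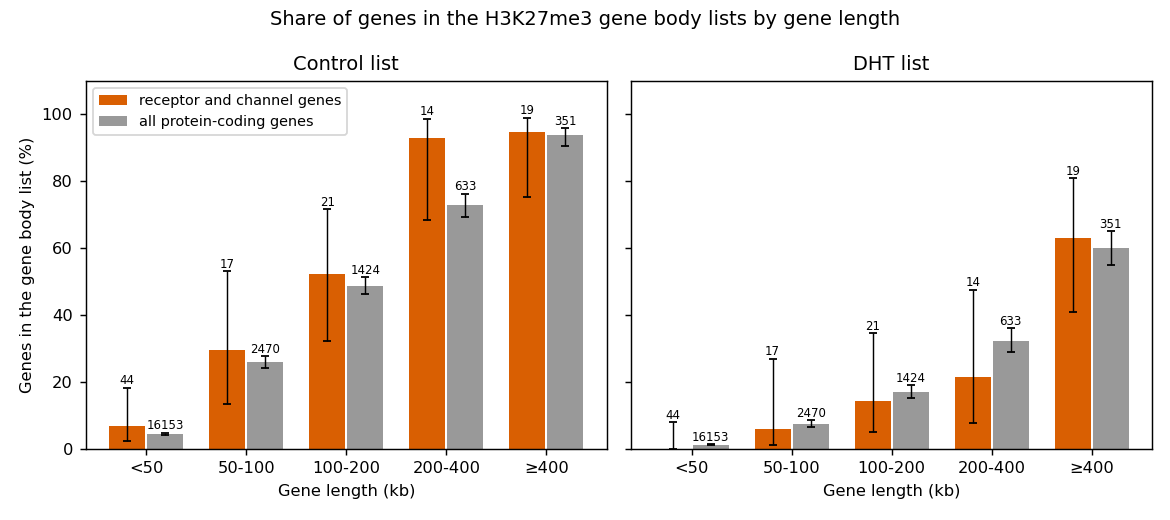
Share of genes in the control (left) and DHT (right) gene body lists, in percent, by gene length in kb; orange bars are the 115 receptor and channel genes and grey bars all protein-coding genes, with 95% Wilson intervals and the number of genes above each bar. The share rises with length in both, and at 400 kb or more 18 of 19 receptor and channel genes are in the control list, with 12 in that of DHT.

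To compare genes of like length, all protein-coding genes were divided into 20 classes of equal gene number by length, and the listed share of each class was summed over the receptor and channel genes in it. Genes of those lengths would give 44.2 in the control list, beside the 50 found, a ratio of 1.13 (0.904 to 1.37, from the Wilson interval of the count). For the DHT list the number was 19.5 beside the 19 found, a ratio of 0.976 (0.641 to 1.44). Both intervals hold 1. They treat related and neighbouring genes as independent draws with 1 common share, and take the number for genes of like length as fixed. They therefore cannot decide whether there is an excess beyond length, which was not tested. The longest class ran from 190.3 to 2390.4 kb, and in it the receptor and channel genes had a median of 434.2 kb where all genes had 311.3 kb, so the number for genes of like length is an underestimate there. With finer classes the ratios were nearer to or below 1, at 1.07 and 0.858 for 50 classes.

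**Figure D2:**
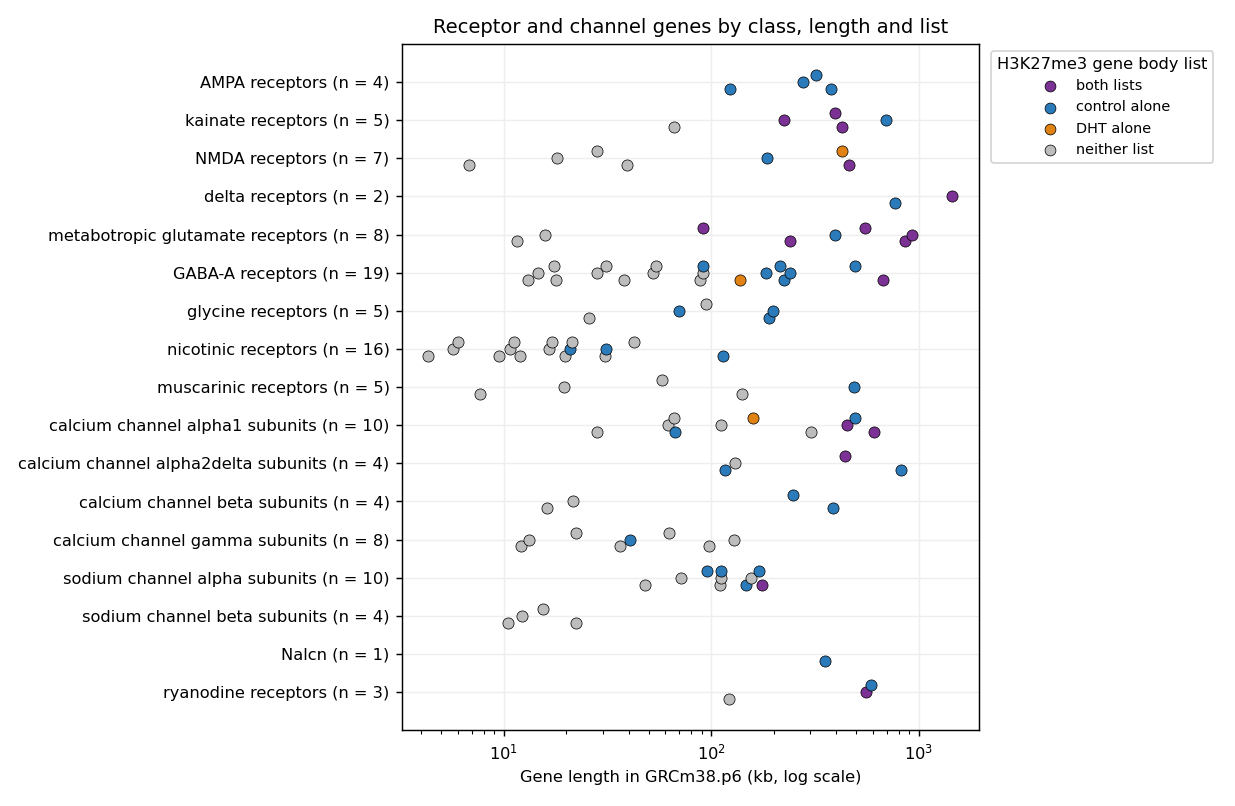
Each point is 1 of the 115 genes, placed by class (vertical) and by gene length in kb on a log scale (horizontal), and coloured by the gene body list it is in; points are offset vertically for legibility. Purple points (both lists, 16 genes) and blue points (control alone, 34) lie to the right, and grey points (neither list, 62) mostly to the left.

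Glutamate receptors had a higher listed share than the other receptors or the channels in either list. Glutamate is the main excitatory transmitter of the brain, and its receptors comprise ion channels of the AMPA, kainate, NMDA and delta families and the G protein-coupled metabotropic receptors. Of the 26 glutamate receptor genes, 18 were in the control list (69.2%, where genes of like length would give 14.7) and 11 in the DHT list (42.3%, against 7.17). Their median length of 298.2 kb was above that of the other receptors pooled (31.0 kb) and of the channels pooled (111.0 kb). In these numbers and those below, every gene of 190.3 kb or more was given the same share, 40.8% for DHT. Of all protein-coding genes, 32.4% from 200 to 400 kb and 60.1% at 400 kb or more were in the DHT list. The DHT numbers are therefore too low for genes of 400 kb or more and too high for those from 200 to 400 kb.

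All 4 AMPA receptor genes, which encode the subunits of fast excitatory channels, were in the control list and 0 in that of DHT. They were Gria4 (378.3 kb), Gria1 (318.7 kb), Gria3 (277.8 kb) and Gria2 (122.8 kb), and genes of like length would give 2.90 for control and 1.40 for DHT. The kainate receptors differed from them in the DHT list. Grik4 (426.8 kb), Grik1 (395.0 kb) and Grik3 (223.9 kb) were in both lists, Grik2 was in the control list alone although it is the longest of the family at 696.5 kb, and Grik5 (65.9 kb) was in neither. Genes of like length would give 3.43 of the 5 in the control list, which held 4, and 1.71 in that of DHT, which held 3. The difference between 0 of 4 and 3 of 5 genes of the 2 families in the DHT list rests on few genes and was not tested.

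NMDA receptors, channels that need both glutamate and glycine or serine and that pass calcium, were listed where the gene was long. Grin2b (460.4 kb) was in both lists, Grin2a (428.2 kb) in the DHT list alone and Grin3a (184.4 kb) in the control list alone. Grin1, the subunit that every such receptor needs, is 28.0 kb long and was in neither gene body list, like Grin2d (39.3 kb), Grin2c (18.1 kb) and Grin3b (6.79 kb). Each list held 2 of the 7, where genes of like length would give 2.40 for control and 1.08 for DHT. Grin2a was the 1 gene of 400 kb or more that was missing from the control list. Grid1 (763.4 kb), a synapse-organising receptor of the delta family, was in the control list alone.

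Metabotropic glutamate receptors held 5 of the 16 genes found in both lists. Grm7 (921.9 kb), Grm8 (860.0 kb) and Grm5 (551.1 kb) were in both, and so were Grm3 (240.1 kb) and Grm4 (91.4 kb), the shortest gene of the 115 in the DHT list. The short genes Grm6 (15.8 kb) and Grm2 (11.6 kb) were in neither. Genes of like length would give 2.16 of the 8 in the DHT list, which held 5.

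Receptors for GABA, glycine and acetylcholine had lower listed shares, and their genes were shorter, with a median of 31.0 kb. Of these 45 genes, 14 were in the control list (31.1%, where genes of like length would give 11.6) and 2 in the DHT list (4.44%, against 4.79). Among the genes in the control list, 1 of 14 was also in the DHT list (7.14%, interval 1.27 to 31.5%), while for glutamate receptors it was 10 of 18 (55.6%, interval 33.7 to 75.4%). The listed genes of these classes had a median length of 194.3 kb and those of the glutamate receptors 395.6 kb, so the 2 sets are not alike in length. Genes of like length would give 3.41 in both lists for the GABA, glycine and acetylcholine receptors, where 1 was found. For the glutamate receptors they would give 6.04, where 10 were found. These numbers also give every gene of 190.3 kb or more the same share. Of all protein-coding genes, 159 of 633 from 200 to 400 kb and 204 of 351 at 400 kb or more were in both lists. The numbers are therefore too low for genes of 400 kb or more and too high for those from 200 to 400 kb. The difference between the 2 sets was not tested.

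GABA-A receptors are chloride channels that mediate most fast inhibition in the brain. Gabrg3, the longest of their 19 genes at 670.8 kb, was in both lists, and Gabra2 (137.5 kb) was in the DHT list alone. Among those in the control list alone were Gabrb1 (491.7 kb), Gabra3 (224.2 kb), Gabrb2 (213.1 kb), Gabra5 (183.3 kb) and Gabrg1 (91.6 kb). The other 11 were in neither list, and among them were Gabra4 (88.6 kb), Gabrd (13.1 kb), the 3 rho subunits Gabrr1, Gabrr2 and Gabrr3 and Gabra6. The control count of 7 compares with 6.86 for genes of like length, and the DHT count of 2 with 2.94.

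Glycine receptors, the inhibitory chloride channels of spinal cord and brain stem, had 3 of 5 genes in the control list (against 1.97 for genes of like length) and 0 in that of DHT (against 0.790). Glra2 (198.9 kb), Glra3 (189.7 kb) and Glrb (70.1 kb), the beta subunit that anchors the receptor at the synapse, were listed, whereas Glra1 (94.0 kb) and Glra4 (25.6 kb) were not. Nicotinic receptors, the acetylcholine-gated cation channels of muscle and nerve, are encoded by short genes, with 3 of 16 in the control list where genes of like length would give 1.24, and 0 in that of DHT, against 0.394. These were Chrna7 (113.8 kb), which forms channels from 1 kind of subunit, Chrnb3 (31.0 kb) and Chrnb4 (20.8 kb). The 13 in neither list ran from Chrna9 at 42.6 kb to Chrne at 4.33 kb and held the other muscle subunits Chrna1, Chrnb1, Chrnd and Chrng. Of the 5 muscarinic receptors, Chrm3 (485.6 kb), which signals through phospholipase C, was in the control list alone (1 gene against 1.57 for genes of like length), and the longest one in neither list was Chrm2 at 140.6 kb.

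**Figure D3:**
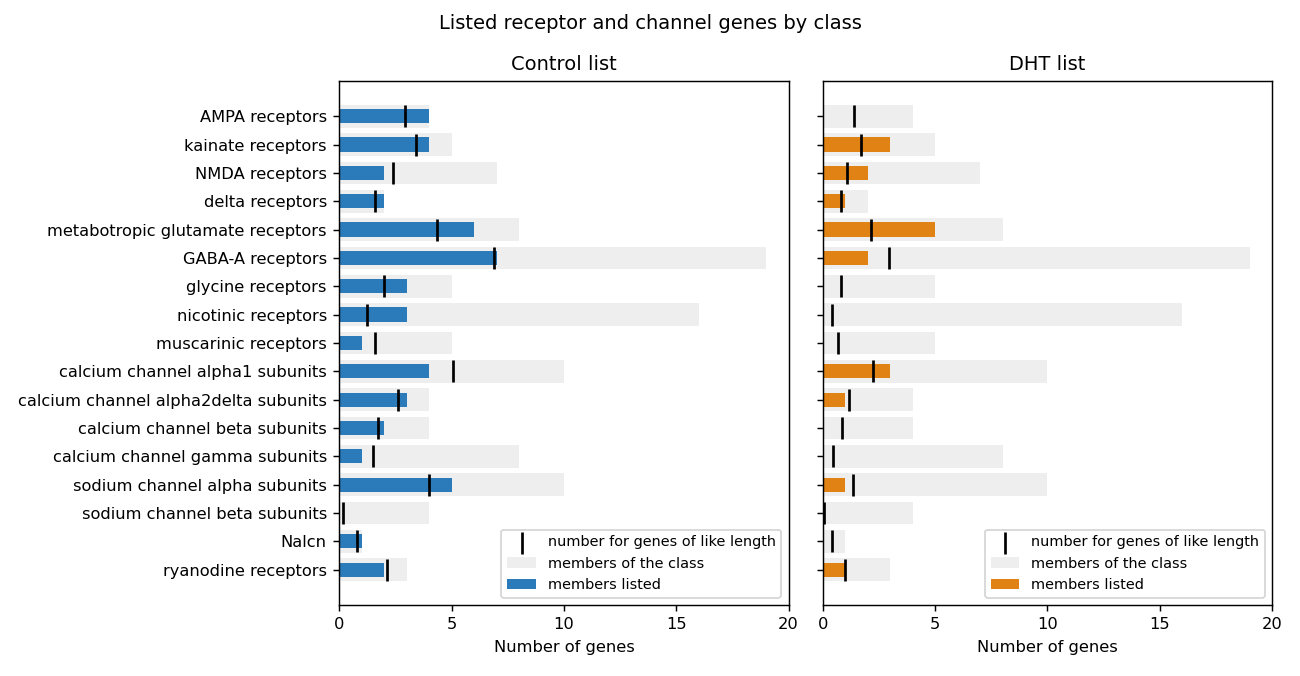
Number of genes in the control (left) and DHT (right) gene body lists for each of the 17 classes: light bars give the size of the class, coloured bars the listed genes, and black ticks the number that genes of like length would give. Among the control bars that pass the tick are those of AMPA (4 against 2.90) and metabotropic glutamate receptors (6 against 4.36). Those of glycine (3 against 1.97) and nicotinic receptors (3 against 1.24) pass it too. Bars short of the tick include calcium channel alpha1 subunits (4 against 5.04) and muscarinic receptors (1 against 1.57). In the DHT list AMPA receptors stand at 0 against 1.40 and metabotropic glutamate receptors at 5 against 2.16. The ticks take all genes of 190.3 kb or more as 1 length class.

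The 44 channel genes were listed in numbers close to those for genes of their length, with 18 in the control list against 17.9 and 6 in the DHT list against 7.50. Their median length was 111.0 kb. Among the pore-forming subunits of calcium channels, Cacna1c (610.1 kb) and Cacna1d (451.2 kb), which carry L-type current, were in both lists, and Cacna1b (159.3 kb), the N-type channel of nerve endings, was in the DHT list alone. Cacna1e (494.0 kb, R-type) and Cacna1s (67.0 kb), the L-type channel of skeletal muscle, were in the control list alone. Cacna1a (301.6 kb), the P/Q-type channel, was the longest of all 115 genes to be in neither list. Cacna1i (111.1 kb), Cacna1g (66.0 kb) and Cacna1h (62.1 kb), which carry T-type current, and Cacna1f (28.1 kb) were also in neither. Genes of like length would give 5.04 of these 10 in the control list, which held 4, and 2.25 in the DHT list, which held 3.

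Of the 16 genes for auxiliary subunits of calcium channels, 10 were in neither list, 5 in the control list alone and 1 in both. The control count of 6 compares with 5.81 for genes of like length, and the DHT count of 1 with 2.48. The alpha2delta subunits raise the number of channels at the surface, and of their 4 genes Cacna2d1 (440.2 kb) was in both lists, Cacna2d3 (817.8 kb) and Cacna2d4 (115.9 kb) were in the control list alone and Cacna2d2 (129.6 kb) was in neither, so that the control list held 3 against 2.62. Of the beta subunits, which bind the pore from inside the cell, Cacnb2 (385.0 kb) and Cacnb4 (248.3 kb) were in the control list alone and the short Cacnb1 (21.5 kb) and Cacnb3 (16.1 kb) in neither, a control count of 2 against 1.71. The gamma family, several members of which serve AMPA receptors, had Cacng5 (40.5 kb) in the control list as 1 of 8 (against 1.48), while Cacng2 (128.3 kb) and Cacng3 (97.7 kb), both longer, were in neither.

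Most sodium channels of the Scn family carry the rising phase of the action potential. Scn8a (176.1 kb) was the 1 gene of the 10 pore-forming subunits in both lists, and Scn1a (170.1 kb), Scn2a (146.7 kb) and Scn7a (111.5 kb) were in the control list alone. Scn9a (155.0 kb), Scn10a (110.9 kb) and Scn11a (71.7 kb), known from sensory neurons, were in neither, and neither were Scn3a (110.5 kb) and the muscle channel Scn4a (48.0 kb). The DHT count of 1 compares with 1.32 for genes of like length. All 4 sodium channel beta subunits, of 10.5 to 22.4 kb, were in neither list, where genes of like length would give 0.168 and 0.0476. Ryanodine receptors release calcium from the endoplasmic reticulum. Ryr2 (553.8 kb), the form of heart muscle, was in both lists, Ryr3 (586.1 kb) in the control list alone and Ryr1 (121.8 kb), the form of skeletal muscle, in neither, where genes of like length would give 2.11 for control and 0.994 for DHT.

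Against the lists of genes whose expression changed with DHT, 3 of the 115 genes were found. Nalcn, which encodes the channel of the resting sodium leak and spans 351.7 kb of chromosome 14, was in the control gene body list and not in that of DHT, and it was 1 of the 22 symbols the authors list as raised in expression with a gene body peak (0.0999% of all protein-coding genes). No gene of the set was among the 15 symbols lowered in expression with a gene body peak (0.0666%). The paper counts fewer lowered genes with such a peak than this list holds, and the reason is not given in the sources used here. Cacna1g, a T-type calcium channel, and Grin1 were among the 66 symbols that the authors link to an enhancer and to raised expression (0.281%), and both were in neither gene body list. None was among the 33 symbols linked to an enhancer and lowered (0.147%). At these shares 0.115, 0.0766, 0.323 and 0.170 of 115 genes would be in the 4 lists, in that order, and counts of 0 to 2 are too small to set the genes apart. These lists carry no value per gene, so the size of each change is not analysed here.

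Neighbouring genes of the set did not always share a list. Of the 115 genes, 42 lie in 17 runs of neighbours with no other protein-coding gene between them. In 9 runs a listed gene stood beside an unlisted one, in 4 every gene was in a list and in the other 4 none was. Over the whole set 53 of 115 genes were in a list, and genes of a run can differ much in length. No such count was made for other neighbouring genes, and a difference from them was not tested. Chrm3 and Ryr2 on chromosome 13 and Gria2 and Glrb on chromosome 3 were runs listed throughout. Gabrg1 and Gabra2, neighbours on chromosome 5, were in different lists, the first in control alone and the second in DHT alone. On chromosome 11, Gabrb2 (213.1 kb) was in the control list, whereas Gabra6 (14.6 kb), beside it, was in neither. In the sodium channel genes of chromosome 2, Scn2a, Scn1a and Scn7a were in the control list while Scn3a and Scn9a were not, although Scn9a, at 155.0 kb, is longer than Scn7a at 111.5 kb. On chromosome 9, Chrnb4 was listed beside the unlisted Chrna3 and Chrna5.

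Overlap with other genes touched few of these counts. Peaks carry no strand, so a peak in an overlap belongs to both genes. Among listed genes, 3 overlapped another listed gene, as Cacna1d did with Dcp1a. Of the unlisted ones, 3 overlapped a listed gene, namely Chrm2 with 9330158H04Rik, Chrm5 with Aven, and Gabra4 with Gabrb1.

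Chromosomes differed in how many of these genes were listed and in how long they were. Of the 7 on chromosome 6, the control list held 6 and the DHT list 5, with a median length of 610.1 kb, and genes of like length would give 5.01 and 2.40. Chromosome 11 held 17 genes with a median of 40.5 kb, of which 3 were in the control list (against 3.62) and 0 in the DHT list (against 1.42). On the X chromosome Gria3, Gabra3 and Glra2 of 7 genes were in the control list (against 2.65) and 0 in the DHT list (against 1.30).

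The CpG content of promoters differed between lists. Within 1000 bases on either side of the start, in GRCm38.p6, the ratio of observed to expected CpG had a median of 0.634 in the 16 genes of both lists and 0.630 in the 3 of the DHT list alone. In the 34 genes of the control list alone it was 0.438, and in the 62 genes of neither list 0.385. Over all protein-coding genes the order was another one, with 0.577 for both lists, 0.552 for the DHT list alone, 0.603 for the control list alone and 0.477 for neither. The values of the groups overlapped widely, these differences were not tested, and the ratio was measured at promoters whereas the peaks of the lists lie in gene bodies.

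**Figure D4:**
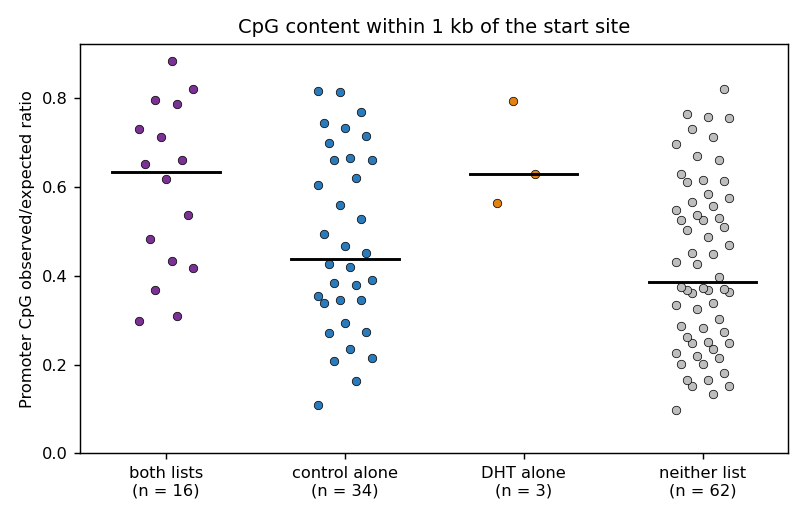
Observed over expected CpG ratio within 1 kb of the start site for each of the 115 genes (points), grouped by the gene body list they are in, with black lines at the medians. The median is 0.634 for genes in both lists and 0.438 for genes in the control list alone, and the points of the groups overlap.

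Partners of these proteins were looked up in the same way, as 5 lists of 119 further genes. Together they had 35 genes in the control list, where genes of like length would give 34.9, and 17 in the DHT list, against 14.9. Of 24 genes that make, load, take up or break down the transmitters, 2 were in the control list (against 4.21). They were the glutamate transporter Slc1a2, which was in the DHT list too, and the choline transporter Slc5a7. Auxiliary and scaffold proteins of ionotropic glutamate receptors had 11 of 29 in the control list (against 9.20). Of these Cnih3, Dlg1, Dlg2, Gsg1l and Nsf were in both lists, and Grip1, Homer1, Neto1, Neto2, Shisa6 and Shisa9 in the control list alone. Gsg1l, an auxiliary subunit of AMPA receptors, was also among the symbols raised in expression with a gene body peak.

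The list of scaffold and assembly factors of inhibitory and cholinergic receptors also held the receptor subunits Gabbr1, Gabbr2, Htr3a and Htr3b. Of its 22 genes, 4 were in the control list (against 3.65) and 2 in the DHT list (against 1.44). Gphn, Musk and Ric3 were in the control list alone. Gabbr2, a subunit of the GABA-B receptor, was in the DHT list alone. The partners of Nalcn and of sodium channels were long, with a median of 312.1 kb. Of these 14 genes, 11 were in the control list (against 9.36) and 6 in the DHT list (against 4.70). Unc79 and Unc80, subunits of the Nalcn complex, were like Nalcn in the control list alone, and so were Cntn1, Fgf12 and Fgf13. Nalcn, Unc79 and Unc80 are 200 to 400 kb long, and 303 of 633 protein-coding genes of that length were in the control list alone. Fam155a, a further subunit of that complex, was in both lists with Ank2, Ank3, Fgf14, Nedd4l and Nrcam. Partners in calcium release had 7 of 31 genes in the control list (against 8.57) and 3 in the DHT list (against 3.53). Itpr2 and Stim2 were in both lists, Asph, Camk2d, Itpr1, Itpr3 and Trdn in the control list alone and Jph2 in the DHT list alone.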

How the data were processed

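H3K27me3 was measured by ChIP-seq in 3 control and 3 DHT samples, grouped by the labelled agent. Per the submitters' processing notes and the study's methods, the authors mapped reads to mm9 with Bowtie2 2.3.4 and called broad peaks with MACS2 2.1.1 (q-value up to 0.05). The deposited peak lists, 1 per group, give a −log10 q-value per peak, from which peaks were counted here. The methods state that duplicates were removed, whereas the peak names carry a setting that keeps some. How replicates were combined, and whether an input library was used, is not given in the sources used here, and the sources differ on the number of mice pooled. The 8 deposited gene lists hold the authors' symbols with no values, and the annotation behind them is not given in the sources used here.

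Symbols were matched to RefSeq for GRCm38.p6, older symbols included, which matched 2851 of 3144 control and 1043 of 1146 DHT gene body symbols to protein-coding genes. That assembly gave lengths, neighbours and sequence, and was not joined to the mm9 peaks, so no peak was assigned to a gene here. Listed shares were compared within 20 length classes, with 95% Wilson intervals, in Python 3.11.15 with numpy 2.4.6, pandas 2.3.3, scipy 1.17.1 and matplotlib 3.10.9. The length classes were tested on simulated data: where the listed share rose in a straight line with length, 20 classes gave ratios that were too high for these long genes, and classes of equal width on a log scale (0.1 and 0.05 in log10 of the length) and 100 classes were then added with the data in view. No test was run, since each group has 1 list.

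The genes, partner lists and naming rule were chosen with earlier results of these data known. Named were every gene in the DHT, expression or enhancer lists, the listed genes and the longest unlisted gene of each class, the 5 shortest listed and 10 longest unlisted genes, and runs of neighbours with a listed gene. Other genes are named to account for their class. Alternatives covered symbol matching, chromosomes, clusters, length measure, length classes, background genes and the q-value limit. Some genes of the set and of the partner lists are counted but not reported here by name.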

Additional observations from a re-analysis of the deposited data

How the results depend on the processing

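Over 17 results, 50 of 54 alternatives moved a count by no more than 1.5 times or a ratio or median by no more than its interval. This tally does not measure robustness, because some alternatives had little or no room to move a value. Exact symbols left every count of listed genes as it was. The X chromosome held 0 genes of the DHT list, so autosomes alone could not change the DHT counts. For the 3 genes in the DHT list alone, the interval of a median is their whole range. Without genes longer than 500 kb, 12 of 104 genes were in the DHT list and 9 in both. With peaks kept up to a q-value of 0.01, the control pool held 6315 peaks and the DHT pool 2612. The gene lists could not be remade at that limit. The ratio to genes of like length ran from 1.07 to 1.19 in control and from 0.858 to 1.10 in DHT. The DHT ratio was above 1 with 10 classes (1.08), on autosomes (1.04) and with 1 gene per run of neighbours (1.10), and below 1 otherwise. Of these alternatives, 100 classes and both log-scale widths were chosen after seeing the data. No paired analysis was possible because each group has 1 pooled list, and no replicate could be left out. The depth of the pools is unknown, so the smaller DHT list and a lower depth cannot be told apart.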

Other observations

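Among the receptor and channel genes of 100 kb or more, the 45 in either gene body list had a median GC content of 39.9% over the gene, and the 9 in neither list 48.9%. Over all protein-coding genes of that length, the 1642 listed ones had 41.4% and the 766 unlisted ones 44.0%. The 9 unlisted genes were Cacna1a, Scn9a, Chrm2, Cacna2d2, Cacng2, Ryr1, Cacna1i, Scn10a and Scn3a. Their median length was 128.3 kb, and that of the 45 listed genes 378.3 kb, so the sets differ in length as well. The part of GC content in the lists was not tested.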
